A study of Homo sapiens with 3 samples.

Results

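This comparison set the mature microRNAs (miRNAs) of Flp-In T-REx 293 cells that made miR-1 from an induced hairpin against those of cells with an empty vector, by small RNA-seq. Its members were the 510 endogenous miRNAs, of 2580 listed, whose mean count over both libraries was at least 10. Some count in either library was found for 1247 of those listed. Entries of the introduced synthetic hairpins were set aside and are described first. Flp-In T-REx 293 is an established HEK293-derived line that carries the tetracycline repressor, and every group was a stable lentiviral population of it. The hairpin lay in an intron of a GFP reporter under a doxycycline-inducible CMV promoter. Geneticin selection (1 mg/mL, 6 days) was followed by induction with doxycycline (1 ug/mL, 7 days) in every line, the empty vector line (control) included, so drug and vector backbone were common to both sides. Another line, with a miR-122 hairpin, is quoted only beside the members, because its ratios use the same control library. Each group held 1 library, so no test between conditions was possible, a difference between lines and one between individual cultures cannot be told apart, and every interval below covers counting error only.

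A miRNA is cut from a hairpin precursor by Drosha and Dicer, which leaves a 5p and a 3p arm. One arm, the guide, is usually retained by an Argonaute protein, and the other, the passenger, is mostly lost. Bases 2 to 8 of the guide, the seed, determine most target pairing, and miRNAs with the same seed are grouped into families. Many miRNAs also lie in genomic clusters and are cut from the same primary transcript. miR-1 is a muscle miRNA of heart and skeletal muscle, and miR-206 is its close relative in skeletal muscle. Kidney-derived 293 cells are not a usual source of either.

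The mature sequences that the results turn on are given from RefSeq (GRCh38.p14), with the seed in capitals. The first pair shows the induced miRNA beside the relative with the same seed, and differs at 4 positions.
miR-1-3p: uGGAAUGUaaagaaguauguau
miR-206: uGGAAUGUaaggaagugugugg
The next set shows let-7, the miR-181 family and the miR-29 family, whose median ratios lay below that of all miRNAs. Among them let-7a-5p and miR-98-5p differ at 2 positions, as do let-7a-5p and let-7b-5p, and miR-29a-3p and miR-29c-3p at 1.
let-7a-5p: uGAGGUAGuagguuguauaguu
let-7b-5p: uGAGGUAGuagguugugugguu
miR-98-5p: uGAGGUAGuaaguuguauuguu
miR-181a-5p: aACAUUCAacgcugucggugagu
miR-181c-5p: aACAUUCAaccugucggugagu
miR-181d-5p: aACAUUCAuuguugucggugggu
miR-29a-3p: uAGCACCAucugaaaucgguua
miR-29c-3p: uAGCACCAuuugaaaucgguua
The last set shows near-identical miRNAs of paralogous clusters, which share a seed but not a genomic locus. Here miR-17-5p and miR-106a-5p differ at 1 position and miR-20a-5p and miR-20b-5p at 2.
miR-17-5p: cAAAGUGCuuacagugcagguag
miR-106a-5p: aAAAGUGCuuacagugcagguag
miR-20a-5p: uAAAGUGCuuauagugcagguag
miR-20b-5p: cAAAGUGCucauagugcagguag

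The miRNA reads summed to 1636834 (control), 2892684 (miR-1) and 2577292 (miR-122) counts. Endogenous miRNAs made up 1636481, 1791702 and 1947669 of them. The 510 kept miRNAs held 99.9% of the endogenous counts on both sides of the comparison. One count in the control library was set against 0.933 times a count in the miR-1 library, the scale obtained by TMM (trimmed mean of M values) on the kept endogenous miRNAs. A log2 ratio below is that of scaled miR-1 counts to control counts, with 0.5 added to each count.

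The miR-1 library was checked first for its own miRNA. miR-1-3p, the guide arm, had 166 counts in the control, 1100840 in the miR-1 and 369 in the miR-122 library, so the miR-1 line stood far apart from both others. Its log2 ratio was 12.59. The passenger arm miR-1-5p had 0, 98 and 0 counts. The lower end of its counting interval put the miR-1 library at 24.3-fold above the control. With 38.06% of all counts on miR-1-3p, endogenous miRNAs held 61.94% of the miR-1 library, against 99.98% of the control. Each deposited RPM value, which divides by all counts, was lowered accordingly: on that scale the median log2 ratio of the 510 endogenous miRNAs was -0.73, with 1 at least 2-fold higher and 105 lower, and 7 and 344 at 1.5-fold. On the endogenous scale the median was -0.01. All further ratios use the endogenous scale and are relative to it, so a change common to most miRNAs would not be seen.

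Muscle miRNAs were examined as relatives of miR-1 by seed or tissue. Of the miR-1 seed family, miR-206 was at 0 in control and miR-1 cells and at 3 counts in miR-122 cells, and miR-613 had none in any. The heart miRNAs miR-208a-3p and miR-208b-3p also had 0 counts throughout, and miR-133b had 1, 0 and 0. The entry of miR-133a-3p, made from the same primary transcript as miR-1 in muscle, belongs to a synthetic hairpin and had 13, 7 and 15 counts. miR-499a-5p, encoded in a myosin heavy chain gene, had 41, 59 and 66 counts, a log2 ratio of 0.42 whose 95% interval (-0.17 to 1.04) spanned 0. Among 14 listed muscle miRNAs, 8 were kept, 5 of them above 0 and 3 below, with a median of 0.10. None of these 8 was at least 1.5-fold higher or lower.

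The member of that list with the clearest difference was miR-378a-3p, which is processed from an intron of PPARGC1B (chromosome 5, 149112388 to 149112453, GRCh37), a coactivator gene of mitochondrial metabolism. It had 34579 counts in the control, 47366 in the miR-1 and 38435 in the miR-122 library. The miR-1 library was the highest of the 3 also after scaling, with a log2 ratio of 0.35 (95% interval 0.33 to 0.37), and the miR-122 library lay close to the control. Its passenger arm miR-378a-5p had 485, 505 and 536 counts and a ratio of -0.04 (-0.22 to 0.14). The near-identical miR-378d, with 693, 866 and 677 counts, lay at 0.22 (0.08 to 0.37), and miR-378c at 0.10 (-0.01 to 0.20). Reads common to the miR-378 entries are divided among them, so these values are not independent of each other.

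Across all 510 miRNAs, most ratios were small. At least 2-fold higher in the miR-1 line were 10 (1.96%), and at least 2-fold lower were 4 (0.784%). At 1.5-fold these numbers were 36 (7.06%) and 46 (9.02%). The 95% counting interval lay above a ratio of 1 for 72 (14.1%) and below it for 103 (20.2%). The median was -0.01 and the spread (1.48 times the median absolute deviation) 0.32. The most abundant miRNAs were nearly the same on both sides: 19 of the top 20 and 47 of the top 50 were shared. The 5 most abundant of each library had log2 ratios between -0.13, for miR-7-5p, and 0.16, for miR-10b-5p.

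The size of the differences depended on abundance. Among the 245 miRNAs with a mean count of 10 to 100, the spread was 0.46, with 9 at least 2-fold higher and 4 lower. Among the 160 with 100 to 1000 it was 0.29, with 1 higher (0.377% of all 265 with a mean of 100 or more) and 0 lower (0%). For the 71 with 1000 to 10000 the spread was 0.18, and none was 2-fold apart, but miR-181d-5p was at least 1.5-fold lower. For the 34 with 10000 or more it was also 0.18, and ratios ran from -0.28 to 0.35. At a mean of at least 100, 5 of 265 miRNAs were at least 1.5-fold higher (1.89%) and 11 lower (4.15%). Intervals lay above 1 for 18, below for 35 and across it for 18 of the 71, and for 15, 13 and 6 of the 34. The median counting standard error was 0.45 in the 245, close to their spread of 0.46, and 0.12 in the 160. It was 0.04 in the 71 and 0.01 in the 34.

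**Figure D1:**
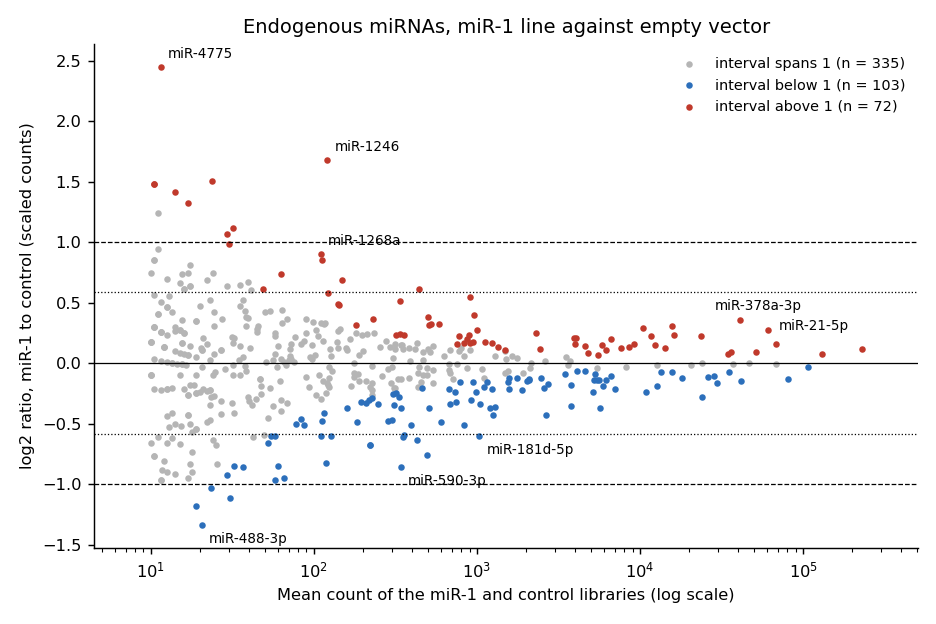
Log2 ratio of scaled counts, miR-1 to control library, against the mean count of both (log scale) for the 510 kept endogenous miRNAs. Colours give the side of the 95% counting interval, dotted lines 1.5-fold and dashed lines 2-fold. The points narrow from a spread of 0.46 at mean counts of 10 to 100 to 0.18 at 10000 or more. Between the same bins the median counting standard error falls from 0.45 to 0.01.

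The highest ratio at a mean of at least 100 was that of miR-1246, whose sequence matches a stretch of the U2 small nuclear RNA. It had 54 counts in the control, 187 in the miR-1 and 140 in the miR-122 library, and was 3.21-fold higher in the miR-1 line (95% interval 2.38 to 4.46). The control library was the low one, with both hairpin lines above it. miR-1268a, with 73.5, 147.5 and 276.5 counts, lay at 1.87-fold (1.41 to 2.51), and its neighbour in sequence miR-1268b, with which it shares reads, at 1.81-fold. Next came miR-181a-2-3p, a passenger arm from an intron of MIR181A2HG on chromosome 9, with 109, 189 and 180 counts and 1.61-fold (1.27 to 2.07). miR-7706 had 334, 548 and 664 counts. miR-548f-3p, from a repeat-derived family with 5 listed genes, had 94, 151 and 84, and so was high in the miR-1 library alone. miR-582-3p, from an intron of PDE4D, had 705, 1106 and 1128 counts, and miR-3158-3p 265, 407 and 384. These last 4 lay between 1.43-fold and 1.53-fold higher, and each of the 8 had an interval above 1.

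The lowest ratio at a mean of at least 100 was that of miR-590-3p. This miRNA, from an intron of EIF4H, had 429 counts in the control, 254 in the miR-1 and 221 in the miR-122 library, a log2 ratio of -0.86 (1.81-fold lower; interval of the ratio 0.471 to 0.647). miR-652-5p, from TMEM164, had 147, 89 and 92 counts, a log2 ratio of -0.82. In both, the miR-1 and miR-122 libraries lay together below the control. miR-874-3p, from an intron of KLHL3 (chromosome 5, 136983261 to 136983338, GRCh37), had 606, 384 and 569 counts and lay at -0.76. Here the miR-1 library was the low one. The same held for miR-375, a miRNA of islet and neuroendocrine cells that lies between genes on chromosome 2 (219866362 to 219866431, GRCh37), with 505, 349 and 801 counts and a ratio of -0.63. For miR-664a-3p, with 149, 105 and 148 counts, the ratio was -0.60. miR-365a-3p and miR-365b-3p have the same mature sequence and equal divided counts, 266, 178.5 and 182.5 each, at -0.67, so their values are not independent, although both enter the counts above.

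miR-365a-3p and miR-193b-3p come from the same locus, MIR193BHG on chromosome 16 (MIR193B at 14397824 to 14397906, MIR365A at 14403142 to 14403228, GRCh37), and had similar ratios, although the reads of miR-365a-3p are shared with MIR365B on chromosome 17. miR-193b-3p had 411, 288 and 286 counts, a log2 ratio of -0.61. The other arm of the same hairpin went the opposite way: miR-193b-5p had 7, 21 and 21 counts, 2.67-fold higher (95% interval 1.15 to 7.79). As a share of both arms, miR-193b-5p was 1.67% in control cells and 6.80% in miR-1 cells.

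Besides miR-1246, 9 miRNAs, all with mean counts of 10 to 100, were at least 2-fold higher, and 6 of them had fewer than 10 counts in the control. miR-4775, from an exon of CCNYL1 on chromosome 2, had 3, 20 and 19 counts, a ratio of 5.46 with a counting interval of 1.84 to 32.7. miR-4659a-3p had 11.5, 36 and 37 counts, and miR-1295a 19, 45 and 50. For all 3, the control library was below both hairpin lines by a similar margin. miR-3180 and miR-3180-3p come from the same hairpins and had equal counts of 5, 16 and 10, so their values are not independent, although both enter the counts above. miR-3117-3p had 9, 25 and 16 counts, miR-1276 had 18, 41 and 36, and miR-642a-3p had 6, 16 and 14, with an interval that included 1 (0.925 to 7.76). The 4 that were at least 2-fold lower were miR-488-3p (29, 12 and 14 counts), miR-1277-3p (26, 12 and 8), miR-135b-5p (41, 20 and 30) and miR-3677-3p (31, 16 and 27). For miR-488-3p, which lies in an intron of the neuronal gene ASTN1, the log2 ratio was -1.34 and the interval of the ratio 0.179 to 0.780. In these 4 the control library was the highest of the 3. Just under the minimum mean of 10, miR-548p had 5.83 and 14 counts and miR-3661 had 14 and 5. Just above it, miR-6511b-3p had 12 and 8 and miR-363-5p had 7 and 14.

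**Figure D2:**
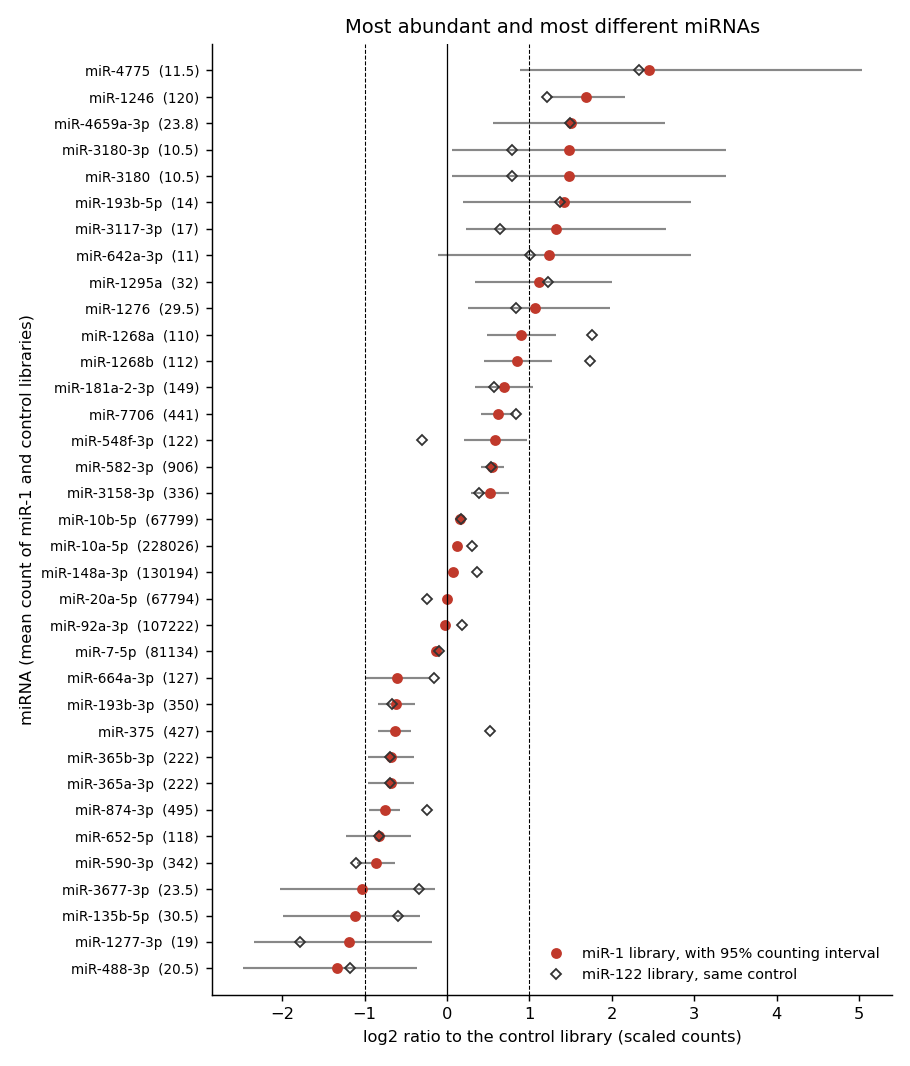
Log2 ratio to the control library for the most abundant miRNAs, the 8 highest and 8 lowest at a mean count of at least 100, and all that were at least 2-fold apart, with the mean count of the miR-1 and control libraries in brackets. Circles with bars are the miR-1 library and its 95% counting interval, and open diamonds the miR-122 library against the same control; for miR-375 and miR-548f-3p the 2 libraries lie on opposite sides of 0.

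Members were next described by seed family. The let-7 family, which restrains growth and is a marker of differentiated cells, had 9 kept members with a median log2 ratio of -0.20, against -0.01 over all miRNAs. Of these, 7 had an interval below 1 and 1 had an interval above it, beside 32.8% and 23% of all miRNAs with a mean of at least 100, as all 9 had. None of the 9 was 1.5-fold apart. Most of them had a mean of at least 1000. There, intervals below 1 were more frequent, at 35 of the 71 with 1000 to 10000 counts and 13 of the 34 above. let-7a-5p, the most abundant member, had 32662, 36948 and 47225 counts and lay at 0.08 (0.06 to 0.10), the only member with an interval above 1. let-7d-5p, with 177, 199 and 176 counts, also lay above 0, with an interval across 1. miR-98-5p, from an intron of HUWE1, had 451, 339 and 346 counts and the lowest ratio, -0.51. let-7b-5p had 1388, 1108 and 1163 counts (-0.43) and let-7i-5p had 4092, 3441 and 3247 (-0.35). As counts of the whole family were led by let-7a-5p and let-7f-5p, the family sum was 0.956 times that of the control.

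The miR-181 family, which acts in lymphocyte and neural development, had 4 kept members, all below 0. miR-181a-5p had 3851, 3649 and 3567 counts and miR-181b-5p 2802, 2667 and 2768, with log2 ratios of -0.18 and -0.17. miR-181c-5p and miR-181d-5p, which lie next to each other on chromosome 19 (13985513 to 13985622 and 13985689 to 13985825, GRCh37), had lower values. For miR-181d-5p the counts were 1211, 855 and 1154 (-0.60; -0.73 to -0.47), and for miR-181c-5p 129, 91 and 62 (-0.60; -1.01 to -0.20). Only the miR-181d-5p interval was clear of that of miR-181a-5p (-0.24 to -0.11), and the other arm of the miR-181c hairpin, miR-181c-3p, lay at -0.37. By contrast, miR-181a-3p (0.23) and miR-181a-2-3p (0.69) had intervals above 1, and miR-181b-3p lay at 0.12 with an interval across 1. In miR-181d-5p the miR-122 library lay nearer the control, at -0.22, and in miR-181c-5p it was the lowest. The family median was -0.39, and all 4 members, each with a mean of at least 100, had an interval below 1, beside 32.8% of all miRNAs at that abundance. At mean counts of 1000 to 10000, where all but miR-181c-5p lay, the interval was below 1 for 35 of the 71 miRNAs.

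All 3 members of the miR-29 family, known for its many collagen targets, had intervals below 1, beside 32.8% of all miRNAs with a mean of at least 100, and their median was -0.41. miR-29a-3p had 1277, 1178 and 1182 counts (-0.22), miR-29b-3p 338, 261.66 and 254 (-0.47) and miR-29c-3p 128, 103.33 and 59 (-0.41). The miR-30 family had a median of -0.07, with all 5 members below 0 and 4 intervals below 1. Such intervals were common among abundant miRNAs, at 35 of the 71 with 1000 to 10000 counts and 13 of the 34 above. Its lowest were miR-30b-5p (1317, 1092 and 1115 counts; -0.37) and miR-30e-5p, from an intron of NFYC (25311, 22405 and 16505; -0.28). For miR-30e-5p the miR-122 library lay further below the control than the miR-1 library. The miR-15/16 family, which targets cell-cycle genes, had 7 kept members with a median of -0.16. Of these, 3 had an interval below 1 and none above. The share with an interval below 1 was 20.2% of all 510 miRNAs and 32.8% of those with a mean of at least 100. miR-195-5p (47 and 46 counts in control and miR-1 cells) and miR-497-5p (25 and 29) were below that mean. miR-16-5p, its most abundant member, had 6102, 5741 and 5046 counts (-0.19).

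Other families and pairs had higher ratios, and 10 of the 22 lists with at least 3 kept members had a median below that of all miRNAs. All 4 arms of miR-221 and miR-222, adjacent genes on chromosome X that repress the cell-cycle inhibitor p27, lay above 0 with a median of 0.18. miR-221-3p had 7880, 9295 and 10775 counts (0.14) and miR-222-3p 5909, 7284 and 7609 (0.20). miR-21-5p, a growth-promoting miRNA of the VMP1 locus on chromosome 17, had 52957 counts in the control, 68604 in the miR-1 and 58598 in the miR-122 library. Its log2 ratio was 0.27 (0.26 to 0.29), with the miR-122 library at -0.00. miR-191-5p, from an intron of DALRD3, had 13403, 17806 and 16496 counts (0.31). After miR-378a-3p, this was the highest ratio at mean counts of 1000 or more. The family of miR-148 and miR-152 was mixed, at 0.08 for miR-148a-3p, -0.24 for miR-148b-3p and 0.28 for miR-152-3p (866, 1125 and 678 counts).

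**Figure D3:**
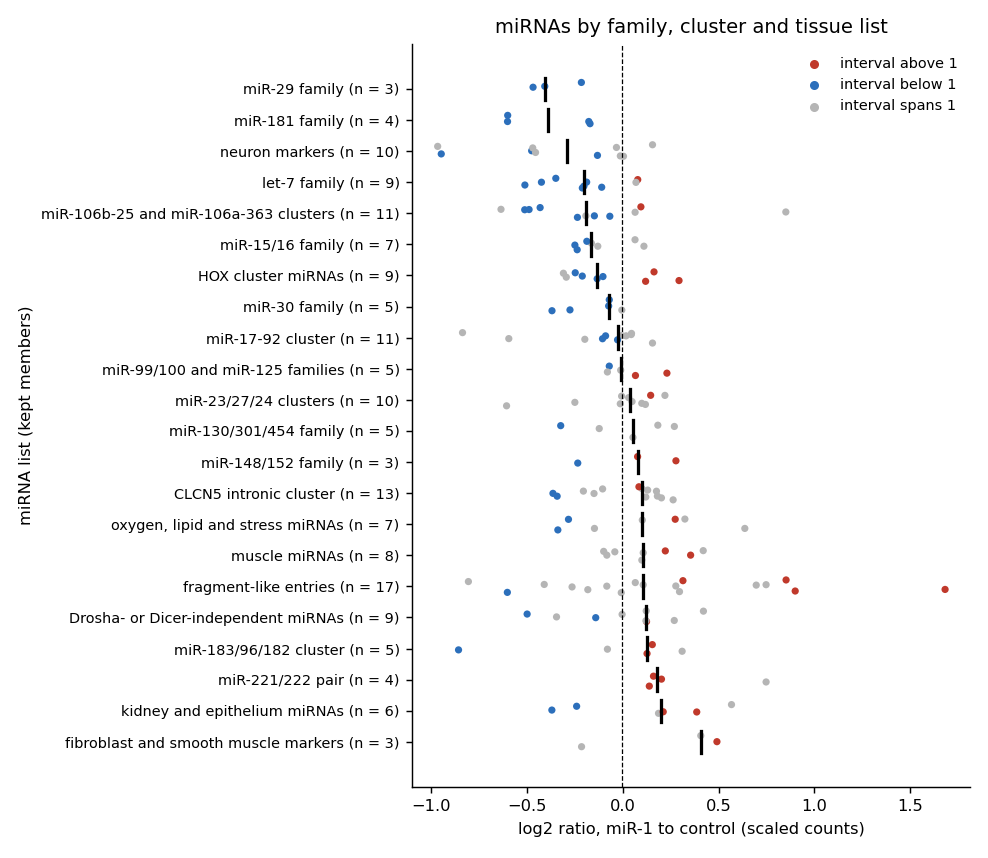
Log2 ratios, miR-1 to control, of the kept members of each list of families, clusters and tissue miRNAs with at least 3 kept members; black bars are medians, the dashed line is the median of all 510 miRNAs, and colours give the side of the 95% counting interval. The miR-29 (-0.41), miR-181 (-0.39) and let-7 (-0.20) medians lie left of the line and the median of the miR-221 and miR-222 pair (0.18) right of it.

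The clusters related to miR-17-92, an oncogenic polycistron that drives proliferation, share seeds but lie at different loci. In the miR-17-92 cluster, 11 members were kept with a median of -0.03. Its most abundant members, miR-92a-3p (104530, 109913 and 131541 counts) and miR-20a-5p (65565, 70024 and 61335), lay at -0.03 and -0.01. Reads of miR-92a-3p can also come from MIR92A2 on chromosome X. In the X-linked miR-106a-363 cluster the median was -0.49 over 5 kept members, which lie within a stretch of chromosome X from 133303408 (MIR363) to 133304308 (MIR106A, GRCh37). miR-106a-5p had 680, 519 and 555.5 counts (-0.49), against 28302, 28185 and 23212.5 for miR-17-5p (-0.11). miR-20b-5p had 945, 710 and 853 counts (-0.51), against -0.01 for miR-20a-5p. Each of these pairs differs by 1 or 2 bases, and their counting intervals did not overlap. Divided reads gave miR-17-5p and miR-106a-5p fractional counts in the miR-122 library, so the values of such a pair may not be independent. miR-363-3p had 2954, 2347 and 3643 counts (-0.43), so for this member the miR-122 library was above the control. miR-363-5p, with 7, 14 and 15 counts, was the exception in this cluster at 0.85, with an interval from -0.51 to 2.45. In the miR-106b-25 cluster of MCM7, ratios ran from -0.24 for miR-106b-5p to 0.09 for miR-25-3p.

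Of the 24 groups of neighbouring genes with at least 3 kept miRNAs, within 10 kb on the same strand, the lowest medians were those of the MIR181C group (-0.60), the MIR106A group (-0.49) and the MIR193B group (-0.47). The highest were the MIR99A group (0.23) and the MIR221 group (0.18). The MIR99A median came from the rare arms miR-99a-3p (7, 14 and 9 counts) and let-7c-3p (29, 45 and 41), whose intervals spanned 1. Its abundant arms let-7c-5p (-0.21) and miR-99a-5p (-0.07) had intervals below 1, and the summed counts of the group were 0.945 times those of the control. In the 13 kept miRNAs of the cluster in CLCN5, a chloride channel gene on chromosome X, the median was 0.10. There, miR-660-5p (1401, 1166 and 1256 counts; -0.37) and miR-362-5p (335, 283 and 277; -0.34) had intervals below 1 while miR-532-5p (4517, 5132 and 6302; 0.08) had one above. In the HOX clusters, which pattern the body axis, 9 miRNAs were kept with a median of -0.13, of which 3 lay above 0 and 6 below. The 3 above were miR-10a-5p (0.12), miR-10b-5p (0.16) and miR-196a-5p (0.29). The abundant miR-196b-5p (6671, 6654 and 7064 counts; -0.10) and miR-615-3p (7327, 6781 and 7224; -0.21) lay below. The other arms of the first 3, miR-10a-3p (-0.13), miR-10b-3p (-0.25) and miR-196a-3p (-0.30), also lay below. Counts in control and miR-1 cells were 210754 and 245299 for miR-10a-5p, 61639 and 73959 for miR-10b-5p, and 8969 and 11781 for miR-196a-5p.

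The arms of all hairpins were then compared. Both arms were kept for 140 pairs, and across them the 5p and 3p log2 ratios had a Pearson r of -0.07 and a Spearman rho of -0.02, or -0.10 and -0.16 for the 57 pairs with a mean of at least 100 in both arms. The points share the 2 libraries, and some share a mature arm. The median absolute difference between arms was 0.23 in these 57 pairs, beside a median counting standard error of 0.12, and 27 of them differed by more than 1.96 standard errors. Both intervals were clear of 1 in 17 of the 57. In 10 of these the arms lay on opposite sides, and in 7 on the same side. The arm with more counts was the same on both sides in 56 of 57 pairs, so the differences changed the share of an arm more than which arm led.

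The pairs below were chosen after their values were seen, as examples of unequal ratios. For mir-454, from an intron of SKA2, the 5p arm had 114 and 171 counts in the control and miR-1 libraries (0.48) and the 3p arm 805 and 689 (-0.32). The 5p share went from 12.4% to 19.9%. For mir-181a-2, in which the 5p arm is shared with mir-181a-1, the 3p arm had 109 and 189 counts (0.69) and the 5p arm 3851 and 3649 (-0.18). For mir-652 the 5p arm lay at -0.82 and the 3p arm, with 529 and 546 counts, at -0.05. For mir-582 the 5p arm had 233 and 223 counts (-0.16) while the 3p arm lay at 0.55. In miR-9, a neuronal miRNA, the 5p arm had 8030 and 8410 counts (-0.03) and the 3p arm 322 and 248 (-0.48). The arms of mir-99b, mir-148a and mir-221 lay above 0 together, and those of mir-374a, mir-106b and mir-181c below.

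**Figure D4:**
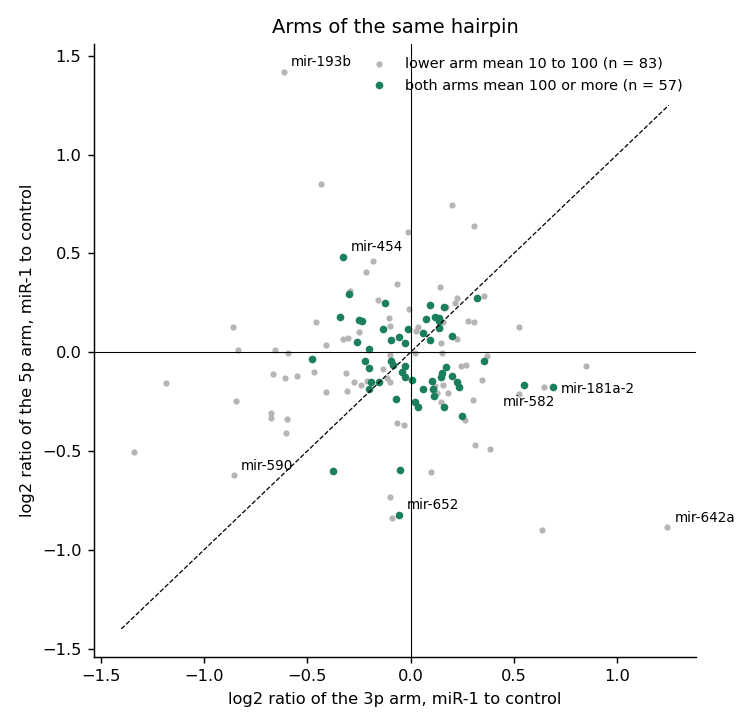
Log2 ratio, miR-1 to control, of the 5p arm against that of the 3p arm of the same hairpin for 140 pairs; green points are the 57 pairs with a mean count of at least 100 in both arms, and the dashed line marks equal ratios. The points form no diagonal band (Pearson r -0.07), and mir-193b and mir-642a lie furthest from the line.

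Names without an arm, which include single-arm and fragment-like entries, had a median of 0.11 over 90 miRNAs, against -0.06 for 211 5p names and -0.01 for 209 3p names. Of the 90, 16 were at least 1.5-fold higher and 6 lower, beside 7.06% and 9.02% of all miRNAs. Their median counting standard error was also larger, at 0.32 against 0.14 for 5p and 0.20 for 3p names. In a list of entries that overlap other small RNAs or repeats, 17 were kept, with 5 at least 1.5-fold higher and 2 lower, beside 7.06% and 9.02% of all miRNAs. The 5 include miR-1246 and both miR-1268 entries, which share divided reads, while miR-3607-3p (175, 177 and 24 counts) and miR-1291 (90, 117 and 14), which overlap small nucleolar RNAs, were low only in the miR-122 library. Among 9 kept miRNAs made without Drosha or without Dicer, such as miR-320a, miR-484 and the mirtron miR-877-5p, the median was 0.12 and none was 1.5-fold apart. miR-320a had 7021, 8199 and 10095 counts (0.12) and miR-484 5638, 5478 and 5496 (-0.14).

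The mature sequence was compared as well, over 236 miRNAs with a mean of at least 100 and a RefSeq entry. The last base of the mature sequence, chosen for description after its values were seen, went with the ratio. In the 81 miRNAs ending in U the median log2 ratio was -0.15, with 61 below 0 and 20 above. In the 50 ending in C it was 0.15, with 17 below 0 and 33 above. Those ending in A (45) and G (60) lay at 0.06 and -0.06. The interval was below 1 for 42 of the 81 ending in U, beside 32.8% of all 265 miRNAs at that abundance, and above 1 for 19 of the 50 ending in C, beside 23%. All let-7 and miR-181 members end in U, whereas miR-29a-3p and miR-29c-3p end in A. Without 7 listed families and clusters the medians were -0.14 for U and 0.16 for C. For U and C they were -0.16 and 0.17 in 5p arms and -0.12 and 0.10 in 3p arms. At a mean of at least 1000 they were -0.13 and 0.01. In the miR-122 library, against the same control, they were -0.17 and 0.03 at a mean of at least 100, and 0.02 and 0.06 at a mean of at least 1000. Across the 236, Spearman rho and Pearson r with the ratio were 0.12 and 0.13 for GC content and -0.13 and -0.25 for length. The RefSeq end is that of the reference and not of the reads, whose ends were not analysed here.

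Tissue lists served to check the label of the cells. No member of 9 pluripotent stem cell miRNAs and none of 36 miRNAs of the imprinted 14q32 cluster reached a mean of 10. Their summed counts were 3 and 8, and 11 and 25, in the control and miR-1 libraries. Of 9 blood miRNAs, only miR-146b-5p did. The defining miR-223-3p had 0 counts in both, and miR-451a 4 and 1. In bulk RNA, fewer cells of a type and less RNA per cell cannot be told apart. Of 8 stromal miRNAs 3 were kept, and among them miR-143-3p had 112, 169 and 107 counts (0.49; 0.14 to 0.85) and so was high in the miR-1 library alone. miR-145-5p, from the same locus, had 2, 7 and 3 counts and miR-214-3p none, and the part of stromal RNA was not tested. Of 10 kidney and epithelial miRNAs 6 were kept. Those below the minimum were miR-200a-3p (6, 9 and 3 counts), miR-141-3p (7, 10 and 2), miR-429 (4, 1 and 0) and miR-205-5p (0, 1 and 5). Kept with intervals across 1 were miR-200b-3p (8, 13 and 12) and miR-200c-3p (250, 305 and 271). miR-192-5p (3634, 4508 and 4074 counts; 0.21) and miR-215-5p (419, 587 and 591; 0.39) had intervals above 1. miR-194-5p (1040, 943 and 692; -0.24) and miR-204-5p (175, 145 and 201; -0.37) had intervals below. Both listed endothelium miRNAs were kept. miR-126-3p had 5319, 6314 and 7533 counts and lay at 0.15 with an interval above 1. Its other arm, miR-126-5p, had 329, 323 and 284 counts and lay at -0.13 with an interval across 1. The neuron list had 10 kept members with a median of -0.29 and 8 below 0. Its most abundant member, miR-7-5p (82045, 80222 and 84683 counts), lay at -0.13 with an interval below 1. Of the 10, 3 had an interval below 1 and 7 had one across it. When a mean of at least 100 was required, the list median was -0.02, against -0.04 over all miRNAs. The highest member, miR-129-5p (315, 376 and 343 counts), lay at 0.15 with an interval across 1. miR-218-5p (23178, 24901 and 35446 counts) and miR-128-3p (12244, 13005 and 13722) lay at 0.00 and -0.01, and miR-138-5p (85, 47 and 62) at -0.95. For hypoxia and lipid miRNAs, miR-210-3p had 213, 206 and 89 counts and miR-33a-5p 186, 214 and 90, so that both were low in the miR-122 library and within counting error of the control in the miR-1 library.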

How the data were processed

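The small RNA reads were counted with miRDeep2 by the authors: adapters were trimmed, reads under 18 nt dropped, identical reads collapsed with their multiplicity, and the rest aligned to miRBase release 21 hairpins with the synthetic hairpins added. The deposited values are estimated counts per mature miRNA and hairpin, with reads that fit several hairpins divided among them, and RPM values by the authors, which per the table headers and values are those counts scaled to a common total of all miRNA counts, synthetic hairpins included. No RPM value entered a ratio. The labels name hg19; miRNA positions and host genes are from GENCODE v44lift37 (GRCh37, same build), and neighbours and sequences from RefSeq (448 of 510 names matched).

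Counts were summed by mature name, names of synthetic hairpins set aside, and miRNAs with a mean of at least 10 over both libraries kept. Scaling was by TMM (edgeR 4.0.16, R 4.3.3), with a pseudocount of 0.5. Intervals are exact conditional 95% intervals of the ratio of 2 counts, which cover counting error only. No molecular identifiers were used, so the counts are of reads and not of molecules, which the intervals do not allow for. With 1 library a group no test was made. Scripts were checked on simulated data. The members and lists were chosen with earlier results of these data known. Named miRNAs were both arms of miR-1, the 5 most abundant of either library, the 8 highest and 8 lowest ratios at a mean of at least 100, all that were at least 2-fold apart, the most abundant and most different members of each list, and muscle miRNAs; others are examples chosen after their values were seen.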

Additional observations from a re-analysis of the deposited data

Results flagged for a closer look

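A synthetic hairpin that belongs to neither line, named i-2.2 in the deposited table, gave a signal in the control library. The paper lists an RNA named Inert2.2-5p as the spike-in of its miRNA qPCR, and inert2.2 as its control miRNA mimic. Whether the i-2.2 reads came from either was not tested. Of its reads, 120 counts on the 5p arm and 7 on the 3p arm stood in the control, both above 3 counts, the upper limit on the expected count where none is observed. Neither arm was seen in either hairpin line (0 counts each). Set-aside entries of other hairpins that belong to neither line also exceeded 3 counts in the control, but had counts in every library. They were miR-124-3p (18, 15 and 12 counts), miR-124-5p (17, 12 and 16) and miR-133a-3p (13, 7 and 15). These counts were set aside before scaling, and their source was not tested.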

How the results depend on the processing

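No paired analysis was possible because there was 1 library for each line. For 69 results, 452 other settings and 13 more chosen after seeing the data were computed; 391 stayed within the limits set and 72 moved, 47 of them under scaling on all counts, where the induced miRNA takes part of the total. That scaling moved miR-1-3p to a log2 ratio of 11.87, the 2-fold counts to 1 higher and 105 lower, and the 1.5-fold counts to 7 and 344. It turned miR-181a-2-3p to -0.030 and miR-7706 to -0.11. With any count kept (1247 miRNAs), 231 were 2-fold higher and 191 lower, 323 and 298 at 1.5-fold, and the median difference between arms was 0.57. With a mean of at least 100 these were 1 and 0, and 5 and 11. With a pseudocount of 5, 4 were 2-fold higher, 1 lower and 20 were 1.5-fold higher. With at least 10 counts required in each library, 4 were 2-fold higher. When the counting interval also had to exclude 1, 16 were 1.5-fold higher and 24 lower. In all 7 alternatives with the lists, between 8 and 10 list medians lay below that of all miRNAs, where 10 of 22 did. The difference between miRNAs ending in U and in C, -0.29 at a mean of at least 100, was -0.23 at 10 and -0.14 at 1000.
Depth limits miRNAs with 10 to 100 counts: 218 of those 245 had an interval across 1.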
